A study of Mus musculus with 9 samples.

Results

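The columns described here are 101 of the 331 that the deposited blood table places in a class named for foxP3 T cells, out of 4310 barcode columns in all. They were chosen by the submitters' class name and by the globin signal, as the columns in which the rows of the alpha and beta globin genes together made up under 20% of the signal. No other value entered the rule, which was set with earlier results of these data known. The study drew peripheral blood from female 129SvE mice, 4 healthy (disease stage 0) and 5 with experimental arthritis, labelled sick with rheumatoid arthritis. The labelled disease stage was 1.5 in arthritic mice 1 and 4, 2 in mouse 3, 1.5 to 2 in mouse 5 and 2 to 2.5 in mouse 6. Transcripts were read out by Seq-Well, which captures single cells with barcoded beads in small wells. Arthritic mice 1, 3, 4, 5 and 6 gave 23, 16, 29, 2 and 30 of the hemoglobin-poor columns, healthy mouse 2 gave 1, and healthy mice 1, 3 and 4 gave 0. The 450 columns named CD4 T cells were the comparison, and the 4 arthritic mice 1, 3, 4 and 6 held at least 5 columns of each kind.

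Natural killer (NK) cells are lymphocytes without a rearranged antigen receptor that kill by releasing perforin and granzymes and that carry activating and inhibitory receptors of the Ly49, NKG2 and NCR families. Regulatory T cells carry a T cell receptor and depend on the transcription factor Foxp3. In blood both are outnumbered by other leukocytes and by red cells, whose globin transcripts can dominate a barcode.

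The label holds only in part. NK genes were higher than in CD4-named columns, but transcripts of the T cell receptor complex were abundant too, Foxp3 itself had signal in 4 of the 101 columns, and most of the 25 leading genes belonged to the cell cycle. The columns are therefore called hemoglobin-poor foxP3-named columns here, with no cell type name. Within them the globin share had a median of 0.362%, and 62 columns were under 1%. The highest share inside the limit was 19.1% and the lowest outside it 21.3%, with 6 columns within 2 points below the limit and 8 within 2 points above.

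Each deposited value is a whole number that sums signal for a gene under a barcode. The values are not taken as counts of single cells, because columns repeat one another. The 101 columns held 77 distinct profiles, 38 columns were identical to another, and 21 were identical to a column of a different mouse. Between distinct profiles, a median of 47.9% of the detected genes had the same value as in the nearest other profile. Small whole numbers can be equal without a shared origin, and no such share is given for CD4-named columns. None of the 101 columns was identical to a column of another class, and 0 of their barcodes occurred in more than 1 mouse. Signal per column outside the globin rows ran from 6345 to 21184 with a median of 8596. Summed per mouse it was 247203, 213720, 238500 and 253845 in arthritic mice 1, 3, 4 and 6, against 1553948, 1354743, 219357 and 1209602 in their CD4-named columns. Levels are given as signal per 1000000 outside the globin rows (SPM), after scaling for composition. A single unit of signal was worth 3.66 to 4.33 SPM in the hemoglobin-poor columns of these mice and 4.53 SPM in the CD4-named columns of mouse 4. Mitochondrial genes took 5.35%, 4.97%, 11.7% and 10.3% of the signal in mice 1, 3, 4 and 6, against 11.4%, 8.31%, 11.1% and 11.2% in CD4-named columns, so that mice 1 and 3 stood apart from mice 4 and 6. Mice 1 and 3 also shared profiles, as 9 of the 23 columns of mouse 1 were identical to a column of mouse 3 and 5 of the 16 of mouse 3 to a column of mouse 1. No other pair of these 4 mice shared more than 1 identical column. Columns alike without being identical were not counted, and leaving out identical columns does not remove them. For example, a column of mouse 4 and another of mouse 6 held 8637 and 8209 signal. In both, the 5 marker genes named below gave 20 of the signal and the Klra genes 7.

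Against CD4-named columns, 552 of 9079 genes (6.08%) were higher in all 4 mice by a mean of at least 1 on the log2(SPM + 1) scale, and 956 (10.5%) were lower. Differences below are the mean ± SD over mice 1, 3, 4 and 6 on that scale, and values by mouse follow that order. They carry no test, because the classes may have been named from these same values, and how they were named is not stated. The median difference over all 9079 genes was −0.22, and it was −0.06 when scaled by the total alone and −0.11 with median-of-ratios factors. Of the genes past the limit in either direction, 36.6% were higher as reported, 50.8% with the total alone and 45.9% with median-of-ratios factors. The share was 23.9% when identical columns of a mouse were counted once (400 higher and 1271 lower), 27.2% with globin under 5% and 27.6% without columns identical to one of another mouse. Only genes that passed the filter of 10 SPM in 4 of 8 libraries can count as higher or lower, and each list below is given with how many of its genes passed it. A gene can pass through the hemoglobin-poor columns alone, so these counts are descriptions. Each count below is to be read beside the shares of 6.08% higher and 10.5% lower over all genes. The 5 genes used to mark these columns were chosen with earlier results of these data known, so their levels are descriptions too. Of these 5, Gzma, Ccl5 and Klra4 were higher in all 4 mice by a mean of at least 1. Ncr1 was higher in each mouse at a low level that missed that filter. Nkg7 was not higher in every mouse.

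Gzma encodes granzyme A, a serine protease of cytotoxic granules (GRCm38 chromosome 13, 113093825 to 113100981, minus strand). Its level was 264, 286, 301 and 262 SPM in the hemoglobin-poor columns and 22.5, 25.9, 49.8 and 55.8 SPM in the CD4-named columns. Every value of the first set lay above every value of the second, and the difference was 2.92 ± 0.63 (n = 4 mice). Gzma had signal in 57.4% of the hemoglobin-poor columns, 17.1% of CD4-named columns and 14.7% of B-cell-named columns, a class that should lack it, at median signals of 8596, 8139 and 8514. After thinning each column to 5000 signal the shares were 53.5%, 8.89% and 9.71%.

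Ccl5 encodes a chemokine that draws T cells and monocytes (chromosome 11, 83525778 to 83530518, minus strand). Its level was 286, 373, 519 and 254 SPM against 75.2, 88.1, 312 and 99.2 SPM. CD4-named columns of mouse 4 were high and overlapped the hemoglobin-poor columns of mice 1 and 6, and the difference was 1.51 ± 0.61.

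Klra4 encodes an activating receptor of the Ly49 family (chromosome 6, 130043731 to 130067271, minus strand). It was at 135, 143, 133 and 79.3 SPM against 10.5, 11.3, 36.2 and 12.4 SPM, with mouse 6 lowest among the hemoglobin-poor columns and still above all 4 CD4 values. The difference was 2.88 ± 0.83. Signal was found in 50.5% of columns, against 10.2% of CD4-named and 9.38% of B-cell-named columns, and in 38.6%, 7.11% and 5.62% after thinning.

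Ncr1 encodes NKp46, an activating receptor widely used to define NK cells (chromosome 7, 4337724 to 4345164, plus strand). Its level was 58.6, 56.3, 35.1 and 7.93 SPM against 7.74, 2.43, 0 and 7.08 SPM. It was high in mice 1 and 3, while in mouse 6 it differed from CD4-named columns by less than 1 unit of signal, and the difference over the mice was 3.04 ± 2.17. CD4-named columns of mouse 4 were at 0, so that mouse's difference depends on the pseudocount. The mean difference was 2.32 without mouse 4 and 2.12 with a pseudocount of 5 SPM. Signal was present in 23.8% of columns, against 4.44% of CD4-named and 2.15% of B-cell-named columns.

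Nkg7 encodes a membrane protein of cytotoxic granules (chromosome 7, 43437073 to 43438249, plus strand). It reached 242, 182, 66.4 and 139 SPM against 131, 112, 140.4 and 120.4 SPM, so the groups overlapped, with mouse 1 high and mouse 4 low. The difference was 0.18 ± 0.88, and it turned negative when repeated columns were counted once (−0.05), when columns identical to one of another mouse were left out (−0.21) and without mouse 1 (−0.05). Nkg7 had signal in 57.4% of the columns, fewer than the 66% of CD4-named columns. After thinning the order was reversed, at 46.5% of the hemoglobin-poor columns and 42% of CD4-named columns.

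**Figure D1:**
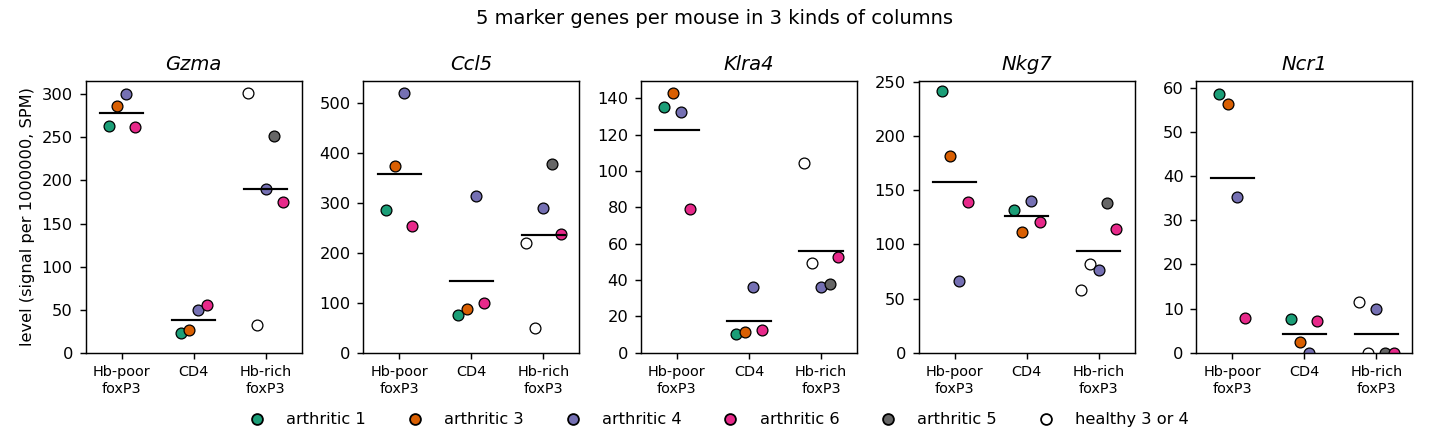
Level of the 5 marker genes in signal per 1000000 (SPM, linear axes from 0), by mouse, in hemoglobin-poor foxP3-named, CD4-named and hemoglobin-rich foxP3-named columns. Points are arthritic mice 1, 3, 4 and 6 for the hemoglobin-poor and CD4-named columns. For the hemoglobin-rich columns they are healthy mice 3 and 4 and arthritic mice 4, 5 and 6. Lines are means of the points drawn. Healthy mouse 2 and arthritic mouse 5, with 79 and 7 CD4-named columns, are not drawn for that kind. Gzma and Klra4 in the hemoglobin-poor columns lie above every CD4 value, and Nkg7 does not. The hemoglobin-rich columns overlap both other kinds for Gzma, Ccl5, Nkg7 and Ncr1, and overlap the hemoglobin-poor columns for Klra4.

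The 5 markers did not mark every column. Of the 101 columns, 83 had signal of at least 1 marker, 57 of at least 3 and 15 of all 5, while 18 had none. The columns with no marker numbered 2 of 23, 2 of 16, 8 of 29 and 4 of 30 in mice 1, 3, 4 and 6, and 1 of 2 in mouse 5. The 83 columns with a marker showed only 43 combinations of the 5 values, and 12 of these combinations recurred in more than 1 mouse, covering 40 columns. The summed level of the 5 markers in single columns ran from 0 to 2997 SPM in mouse 1, 0 to 4706 in mice 3 and 4, and 0 to 2436 in mouse 6, with medians of 886, 849, 1282 and 575 SPM.

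Several Klra genes, which encode the Ly49 receptors, were higher. Of the list of 37 NK receptors and adaptors, 22 passed the filter, 12 were higher, 1 was lower and 4 had no signal in these columns, and the median difference over the 37 genes was 1.33. Klra1, an inhibitory receptor, was at 117, 121, 137 and 35.7 SPM against 7.74, 9.7, 36.2 and 6.2 SPM, a difference of 2.88 ± 0.90. Klra7, also inhibitory, was at 95.2, 121, 148 and 47.6 SPM against 14.1, 10.5, 58.9 and 10.6 SPM and overlapped the CD4 level of mouse 4, with a difference of 2.37 ± 0.89. Klra3, Klra8, Klra9 and Klra13-ps were higher by 1.23, 1.69, 2.01 and 2.44. Mouse 6 had the lowest level of Klra1, Klra4 and Klra7 among the 4 mice.

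How reads divide between single Klra genes is uncertain. The 14 Klra genes of the GENCODE M21 annotation lie together on chromosome 6 between 129831154 and 131247362, and the family's gene content is known to differ between 129 mice and the C57BL/6 reference. With read 2 of 50 bases, 4.35% of the 50-base words of Klra4 transcripts also occurred in another Klra gene of the reference, against 12.3% for Klra7, 33.1% for Klra8 and 39.8% for Klra10.

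Among the lectin-like receptors outside the Klra family, Klrg1, an inhibitory receptor of mature NK and effector T cells, was at 32.9, 43.3, 54.7 and 63.4 SPM against 4.22, 4.04, 4.53 and 1.77 SPM, a difference of 3.43 ± 0.79. Klrk1, which encodes the activating receptor NKG2D, was at 62.2, 78, 43 and 27.8 SPM against 14.8, 8.08, 13.6 and 15.1 SPM (1.89 ± 0.95). Cd244, a receptor of the SLAM family, was higher by 2.11 ± 0.74. Klre1, which pairs with other NK receptors, was at 106, 104, 66.4 and 7.93 SPM against 16.2, 16.2, 27.2 and 20.4 SPM, high in mice 1, 3 and 4 and below CD4-named columns in mouse 6. Klrd1 (CD94) overlapped the CD4 level, at 32.9, 52, 109 and 75.3 SPM against 22.5, 54.2, 45.3 and 41.6 SPM. Cd96, a receptor of T and NK cells, was the lower member of the list (−1.01 ± 0.68).

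The adaptors differed from one another. Fcer1g, which links activating receptors to kinases in NK and myeloid cells, was at 132, 113, 262 and 230.0 SPM against 32.3, 30.7, 63.4 and 82.4 SPM (1.83 ± 0.26). Tyrobp (DAP12), used by activating Ly49 receptors and by myeloid cells, was at 176, 139, 387 and 321 SPM against 71, 63.9, 90.6 and 103 SPM (1.53 ± 0.43). Both were higher in mice 4 and 6 than in mice 1 and 3, the reverse of Ncr1. The neutrophil list, which moved with these 2 adaptors, stood at 2863, 3171, 6143 and 5127 SPM in sum against 864, 824, 1535 and 1219 SPM in CD4-named columns, and its part in the adaptor levels was not tested. Hcst (DAP10) and Cd247 (the zeta chain) were not higher, with differences of −0.64 and −0.68.

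Over the list of 20 NK cell genes, which holds the 5 markers, 14 passed the filter, 9 were higher, 0 lower and 1 had no signal, and the median difference was 1.43. The summed level was 1742, 1785, 1914 and 1424 SPM against 484, 482, 824 and 564 SPM, with no overlap, and the difference of the sums was 1.57 ± 0.35. Of the 15 genes other than the markers, 10 passed the filter, 6 were higher (Klrk1, Klrg1, Gzmb, Il2rb, Xcl1 and Tyrobp) and 0 lower. Those 15 summed to 758, 745, 859 and 682 SPM against 237, 243, 285 and 269 SPM, a difference of 1.55 ± 0.15, also without overlap. Members of that list outside the receptors included Il2rb, the shared beta chain of the interleukin receptors for IL2 and IL15, at 132, 113, 50.8 and 19.8 SPM against 25.3, 20.2, 40.7 and 15.1 SPM, high in mice 1 and 3. Xcl1, a chemokine for dendritic cells, was at 65.9, 99.6, 43 and 31.7 SPM against 19.7, 33.1, 9.06 and 26.6 SPM (1.41 ± 0.81). Eomes, a transcription factor of NK and memory T cells, was at 69.5, 65, 15.6 and 3.97 SPM against 24.6, 12.1, 4.53 and 13.3 SPM, so it was above CD4-named columns in mice 1, 3 and 4 and below them in mouse 6. Tbx21 (T-bet) was at or under 19.5 SPM in each of the 4 mice. The summed list was not set apart from every other class. Without composition scaling it ran from 1414 to 2055 SPM over the 4 mice, from 982 to 1774 in granulocyte-named columns and from 1126 to 1990 in columns named myeloid dendritic cells. In the hemoglobin-rich columns of the same class it ran from 1074 to 1882 SPM over 5 mice. Gzma, by contrast, ran from 260 to 323 SPM, above the highest mouse of the granulocyte-named (172), myeloid dendritic (151), CD4-named (52.1) and B-cell-named (43.4) columns, and within the range of the hemoglobin-rich columns of the same class (43 to 343 SPM).

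Of 24 genes of cytotoxic granules and death ligands, 18 passed the filter, 2 were higher (the marker Gzma, and Gzmb) and 2 lower (Ctsw and Unc13d), both near the background of 6.08% and 10.5%. The median difference was 0.36 and that of the sums 0.07 ± 0.23. Gzmb, granzyme B, was at 14.6, 13, 15.6 and 35.7 SPM against 3.52, 4.85, 9.06 and 7.97 SPM (1.45 ± 0.58), a low level of a few units of signal. Prf1, perforin, was at 22, 17.3, 39.1 and 67.4 SPM against 25.3, 17.8, 13.6 and 15.9 SPM, above CD4-named columns in mice 4 and 6 only. Srgn, the proteoglycan that packs granule proteins, was the most abundant member at 900.5, 771, 992 and 1174 SPM and lay below CD4-named columns in each mouse (−0.43 ± 0.33). Ifng, interferon gamma, had signal in mice 1 and 3 (62.2, 17.3, 0 and 0 SPM).

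Of 15 chemokine, chemokine receptor and trafficking genes, 12 passed the filter, 3 were higher and 1 lower, against background shares of 6.08% and 10.5%. Ccr2, a receptor that brings cells to inflamed tissue, was at 109.8, 69.3, 137 and 163 SPM against 38, 41.2, 27.2 and 49.6 SPM (1.56 ± 0.64). It is also in the monocyte and dendritic cell list below. Ccr7, which brings naive and central memory T cells to lymph nodes, was the lower gene, at 132, 165, 89.8 and 194 SPM against 331, 342, 317 and 294 SPM (−1.19 ± 0.51). S1pr1, a receptor that serves exit from lymph nodes, had a mean difference of −0.92. Of 14 cytokine receptor genes, 10 passed, 1 was higher (Il2rb) and 4 lower (Il18r1, Il21r, Ifngr1 and Tgfbr2). Ifngr1 was at 264, 325, 437 and 476 SPM against 778, 779, 724 and 789 SPM (−1.07 ± 0.41).

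Of 18 genes of proximal signalling in NK and T cells, 15 passed the filter, 0 were higher and 4 lower. Plcg1, a phospholipase activated through the T cell receptor, was at 0, 4.33, 3.91 and 19.8 SPM against 71.7, 56.6, 67.9 and 59.3 SPM (−3.74 ± 1.91). Zap70 and Txk, kinases of the same pathway, were lower by means of −1.07 and −1.16. Among 15 genes of NK maturation and adhesion, of which 13 passed, Itgal (the alpha chain of LFA-1) at 121, 99.6, 39.1 and 95.2 SPM and Itgb1 (the integrin beta-1 chain) at 479.5, 359.6, 285 and 194 SPM were higher, by 1.56 ± 0.33 and 1.18 ± 0.59, and Cd27 was lower. Of 16 NK transcription factor genes, of which 14 passed, only Zeb2, a factor of terminal maturation, was higher (87.9, 52, 82 and 91.2 SPM against 30.2, 30.7, 45.3 and 39.9 SPM). The counts of these lists stand beside background shares of 6.08% higher and 10.5% lower, and the single genes Zeb2 and Cd27 lie near them.

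T cell transcripts were abundant, at a level somewhat below that of CD4-named columns. The 20 T cell genes summed to 5904, 5636, 4721 and 4846 SPM against 8006, 7699, 6932 and 7334 SPM, a difference of −0.51 ± 0.08, without overlap, or −0.34 with the total alone and −0.39 with median-of-ratios factors. All 20 passed the filter, 0 were higher and 3 lower, namely Cd4, Lef1 and Ccr7, against 10.5% of all genes lower. Trbc2, a constant segment of the T cell receptor beta chain, was at 1321, 1360.3, 1175 and 971 SPM against 1690.5, 1734, 1526 and 1584 SPM (−0.45 ± 0.17). Trbc1 was at 633, 862, 644 and 678 SPM against 802, 824, 765 and 773 SPM (−0.18 ± 0.17), which placed mouse 3 above CD4-named columns. Cd3e, a signalling chain of the receptor, was at 198, 199, 89.8 and 103 SPM against 321, 295, 213 and 254 SPM (−0.95 ± 0.37), with mice 4 and 6 low. Cd4, the coreceptor, was at 73.2, 69.3, 35.1 and 27.8 SPM against 105, 151, 122 and 133 SPM (−1.40 ± 0.75), and the coreceptor gene Cd8b1 at 176, 134, 74.2 and 119 SPM against 257, 229.6, 217 and 241 SPM, so the CD4-named columns held both coreceptors too. Cd3d had signal in 92.1% of the hemoglobin-poor columns, 97.3% of CD4-named, 75.5% of B-cell-named and 36.3% of granulocyte-named columns, so a B cell class that should lack it carried it in most columns.

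Foxp3, for which the class is named, was not raised. It had signal in 3.96% of the columns, against 16% of CD4-named, 5.84% of B-cell-named and 0.21% of granulocyte-named columns, so its share was not above that of the B-cell-named columns. Of 13 regulatory T cell genes, 8 passed the filter, 0 were higher and 1 was lower (Gpr83), near the background of 10.5%. Tnfrsf18 (GITR), Tnfrsf4 (OX40) and Ikzf2 (Helios) split by mouse. Tnfrsf4 was at 117, 134, 43 and 27.8 SPM against 29.5, 55.8, 27.2 and 39 SPM, and Ikzf2 at 80.5, 86.6, 19.5 and 19.8 SPM against 75.2, 51.7, 36.2 and 46.9 SPM, so that mice 1 and 3 were above mice 4 and 6 in both.

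Cell-cycle genes made up most of the leading differences. The 25 leading genes are those with the largest mean difference at a mean of 50 SPM or more in the hemoglobin-poor columns, so Klrg1, with a difference of 3.43 at a mean of 48.6 SPM, fell just under that level. Of the 25, with mean differences from 3.08 to 5.48, all but Car1, Car2, Alad and Igsf6 serve DNA replication or repair, nucleotide supply, chromatin or mitosis. Cdc6, which loads the replicative helicase, was at 54.9, 78, 62.5 and 19.8 SPM against 3.52, 4.04, 0 and 0.886 SPM (4.26 ± 1.17). Hmmr, a protein of the mitotic spindle, was at 289, 234, 35.1 and 27.8 SPM against 25.3, 11.3, 0 and 2.66 SPM (3.97 ± 0.96). Ccnb2, cyclin B2, was at 172, 173, 62.5 and 15.9 SPM against 18.3, 8.89, 0 and 8.86 SPM (3.52 ± 2.17). The replication-dependent histone gene Hist1h1b was at 864, 1317, 676 and 234 SPM against 50.6, 132, 54.3 and 51.4 SPM (3.29 ± 0.81). Mouse 6 had the smallest difference for 20 of the 25 genes. For 19 of them CD4-named columns of mouse 4 were at 0, which makes that mouse's difference depend on the pseudocount, and without mouse 4 all 25 still had a mean difference of at least 1 (Ccnb2 2.69, Hmmr 3.56).

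**Figure D2:**
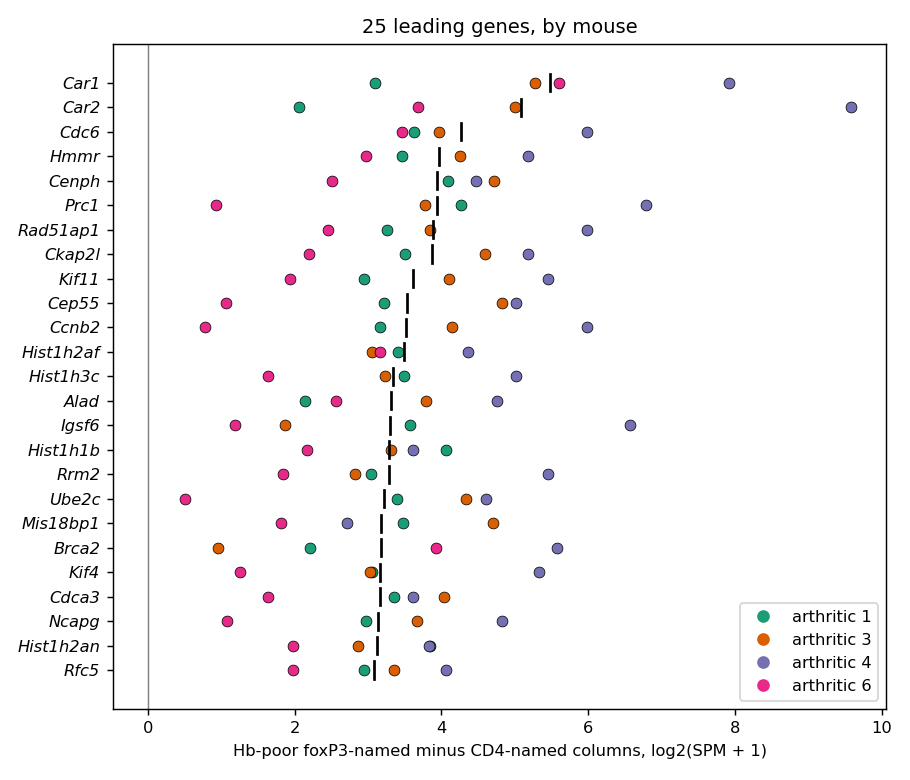
Differences between hemoglobin-poor foxP3-named and CD4-named columns, log2(SPM + 1), for the 25 genes with the largest mean difference, at a mean of 50 SPM or more in the hemoglobin-poor columns, 1 point for each of arthritic mice 1, 3, 4 and 6 and a bar for the mean. The choice of genes places every point above 0, and mouse 6 has the smallest difference for 20 of the 25 genes.

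Of the list of 12 proliferation genes, all passed the filter, 10 were higher and 0 lower, and the exceptions were Pcna and Mcm5. The list summed to 6036, 6446, 2292 and 1253 SPM against 1175, 1108, 765 and 920.1 SPM (1.73 ± 0.95), so that mice 1 and 3, which share identical columns, were far above mice 4 and 6. Mki67, a marker of cycling cells on chromosome 7, was at 1087, 979, 418 and 210.2 SPM against 144, 118, 27.2 and 112 SPM (2.68 ± 1.27). Top2a, topoisomerase II alpha on chromosome 11, was at 864, 944, 289 and 147 SPM against 114, 122, 27.2 and 80.6 SPM (2.52 ± 1.13). Birc5, a protein of the mitotic centromere, was at 238, 204, 39.1 and 11.9 SPM against 12, 12.9, 18.1 and 6.2 SPM. The levels of all 3 genes in mice 4 and 6 lay below those in mice 1 and 3, and mouse 6 was lowest.

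High proliferation was not particular to these columns. Summed without composition scaling, the list ran from 1245 to 6962 SPM over the 4 mice, against 1998 to 6019 SPM in granulocyte-named columns of 9 mice and 5809 to 16430 SPM in columns named common myeloid progenitors in 4 mice. In the hemoglobin-rich columns of the same class it ran from 1170 to 2621 SPM over 5 mice. Mki67 had signal in 63.4% of the hemoglobin-poor columns, 45.1% of CD4-named and 76.3% of granulocyte-named columns, and in 60.4%, 26.9% and 70.5% after thinning.

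Single columns fell on both sides of the CD4 range. Of the 101 columns, 51 summed to more than 2057 SPM over the proliferation list, the 95th percentile of the CD4-named columns, as did 34 of the 77 distinct profiles. These were 19 of 23 columns in mouse 1, 14 of 16 in mouse 3, 11 of 29 in mouse 4, 4 of 30 in mouse 6, both columns of mouse 5 and the 1 of healthy mouse 2. At least 1 of the 5 markers had signal in 36 of the 51 columns above that level and in 47 of the 50 below it, so both kinds of column held the markers. Over the 101 columns the summed markers and the proliferation list had a Pearson correlation of −0.14, and −0.15 over the 77 distinct profiles. These points share mice and the total that scales them, and no test was made.

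**Figure D3:**
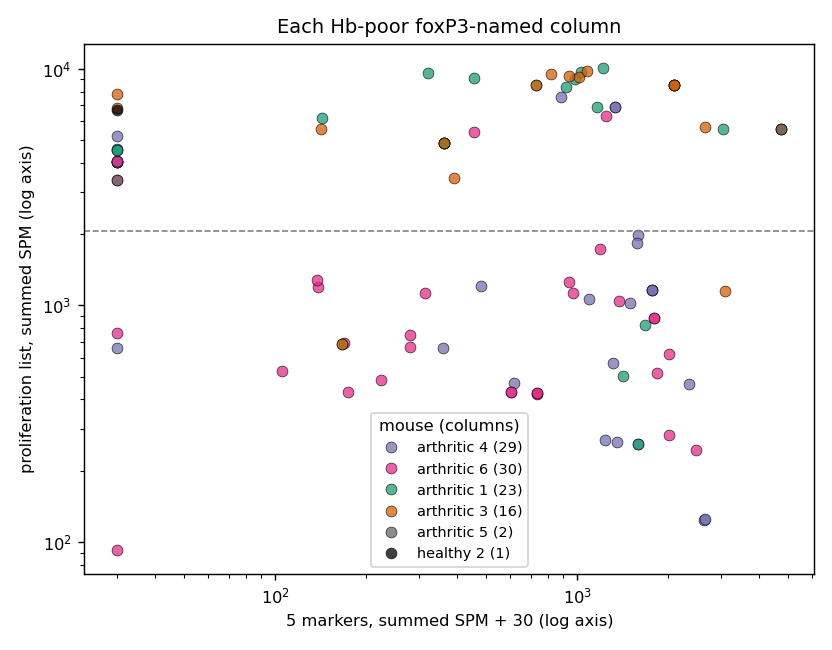
Summed level of the proliferation list against that of the 5 markers in each of the 101 hemoglobin-poor foxP3-named columns, in SPM on log axes, coloured by mouse. An offset of 30 SPM is added to the marker sum so that columns with none can be drawn, and identical columns lie on one another. The dashed line is the 95th percentile of CD4-named columns (2057 SPM), above which 51 columns lie, among them 19 of mouse 1 and 14 of mouse 3.

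Because so many leading genes belong to the cell cycle, their start sites were read for the 2 short words known from cell-cycle promoters, TTTGAA (the core of the cell-cycle homology element) and CCAAT. Sequences are the 250 bases before the start from the RefSeq table of GRCm38.p6, on the gene's own strand, with both words in capitals wherever they occur on either strand (TTCAAA and ATTGG are the reverse complements). Ccnb2 and Top2a are shown as cell-cycle genes and Gzma and Klra4 as markers, at chr9:70421555-70421804, chr11:99024190-99024439, chr13:113100982-113101231 and chr6:130067272-130067521, all on the minus strand.
Ccnb2: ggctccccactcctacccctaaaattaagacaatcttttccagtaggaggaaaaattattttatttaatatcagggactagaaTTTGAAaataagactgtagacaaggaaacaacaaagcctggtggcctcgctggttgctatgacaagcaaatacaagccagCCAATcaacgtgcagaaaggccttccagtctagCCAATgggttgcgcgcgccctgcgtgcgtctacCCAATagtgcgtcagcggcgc
Top2a: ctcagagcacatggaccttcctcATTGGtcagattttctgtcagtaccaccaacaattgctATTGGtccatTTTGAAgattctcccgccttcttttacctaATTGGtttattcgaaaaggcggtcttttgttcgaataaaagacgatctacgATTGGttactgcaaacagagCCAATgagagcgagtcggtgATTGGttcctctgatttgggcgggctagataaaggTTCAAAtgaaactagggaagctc
Gzma: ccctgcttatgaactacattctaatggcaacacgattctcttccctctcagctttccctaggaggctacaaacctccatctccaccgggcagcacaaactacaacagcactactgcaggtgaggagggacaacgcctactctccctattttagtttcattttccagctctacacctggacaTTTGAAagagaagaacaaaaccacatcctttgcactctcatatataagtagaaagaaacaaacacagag
Klra4: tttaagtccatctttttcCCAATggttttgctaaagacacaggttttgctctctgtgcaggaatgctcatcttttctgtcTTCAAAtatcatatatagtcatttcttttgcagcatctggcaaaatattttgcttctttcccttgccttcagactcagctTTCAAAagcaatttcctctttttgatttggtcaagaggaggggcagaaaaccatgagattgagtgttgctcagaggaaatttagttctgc
The Top2a window holds 2 matches of TTTGAA and 6 of CCAAT, and the Ccnb2 window 1 and 3. The Gzma window holds 1 and 0, and the Klra4 window 2 and 1. CCAAT occurred in 34.5% of 27025 promoter windows of that length, in 12 of the 18 leading genes with a window in the table, in 10 of 11 genes of the proliferation list and in 5 of 14 genes of the NK cell list. TTTGAA occurred in 16.3% of all windows, in 5 of the 18 leading genes, 6 of the 11 proliferation genes and 2 of the 14 NK genes. Both words together were found in 5.73% of all windows and in 5, 6 and 1 of these sets. A match of letters is a description and not a binding site.

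Markers of other cell types were also present. Of the 20 erythroid genes other than globin, 11 passed the filter, 3 were higher and 0 lower. Car2, a carbonic anhydrase abundant in red cells and their precursors, was at 117, 394, 765 and 171 SPM against 27.4, 11.3, 0 and 12.4 SPM, and Car1 at 25.6, 69.3, 242 and 47.6 SPM against 2.11, 0.808, 0 and 0 SPM. Both were highest in mouse 4. Their differences were 5.08 ± 3.23 and 5.48 ± 1.98, and 3.58 and 4.66 without mouse 4. The list summed to 362, 832, 2558 and 828.7 SPM against 364, 311, 593 and 327 SPM (1.21 ± 0.88), and the difference was 0.07 when only columns under 5% globin were kept. Alad, an enzyme of heme synthesis, was higher by 3.31 ± 1.19.

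Of 14 neutrophil genes, 8 passed the filter and all 8 were higher, and the summed difference was 1.94 ± 0.15. The list was higher still in the hemoglobin-rich columns of mice 4 and 6, at 7155 and 7494 SPM against 6143 and 5127 SPM in the hemoglobin-poor columns. S100a8, a calcium-binding protein of neutrophils, was at 1786, 1975, 3601 and 2998 SPM against 522, 497, 959.8 and 724 SPM (1.93 ± 0.12), and its partner S100a9 followed it (1.93 ± 0.09). Cxcr2, the chemokine receptor of neutrophils, was higher by 2.93 ± 1.59. These 3 genes were higher in mice 4 and 6 than in mice 1 and 3. Of 16 monocyte and dendritic cell genes, 10 passed, 4 were higher and 0 lower, among them Lyz2, a lysozyme of myeloid cells, at 838, 494, 1109 and 1824 SPM against 229, 233, 407 and 458 SPM (1.60 ± 0.42). That list summed to 2515, 2417, 3382 and 5479.9 SPM against 2989, 3443, 2798 and 3092 SPM (0.08 ± 0.59), below CD4-named columns in mice 1 and 3 and above them in mice 4 and 6. The part of these transcripts in the NK and cell-cycle differences was not tested.

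Of 18 basophil and mast cell genes, 5 passed the filter, 4 were higher and 0 lower, led by Mcpt8, a basophil protease, at 11, 17.3, 54.7 and 63.4 SPM against 0, 3.23, 0 and 2.66 SPM, and 3 defining genes (Prss34, Il13 and Alox15) had no signal. In mice 4 and 6 that list summed to 371 and 412 SPM, below the 740 and 824 SPM of their hemoglobin-rich columns. Of 13 platelet genes, 3 passed, 2 were higher (Nrgn and F13a1), and 7, including Ppbp and Gp9, had no signal. F13a1 is also in the monocyte and dendritic cell list. The platelet list summed to 87.9, 86.6, 191 and 95.2 SPM against 29.5, 30.7, 67.9 and 40.7 SPM, without overlap (1.42 ± 0.15). It too was higher in the hemoglobin-rich columns of mice 4 and 6, at 240 and 167 SPM. Of 12 B cell genes, all passed, 0 were higher and 5 lower, led by Fcer2a (−3.41 ± 1.48) and Ighd (−2.13 ± 1.35). In sum they stood at 644, 519.9, 1457 and 1673 SPM against 1636, 1626, 1331 and 1551 SPM, below CD4-named columns in mice 1 and 3 and slightly above them in mice 4 and 6 (0.13 and 0.11). The 10 plasma cell genes, of which 6 passed, gave 0 in each direction, yet summed to 329, 389.9, 249.9 and 10377 SPM. The value of mouse 6 came from 1 column in which Igha and Jchain, the heavy chain of immunoglobulin A and its joining chain, gave 1437 and 1016 of the signal, 22.7% of that column together, while the next highest column had 0.127%. Without it 546 genes were higher and 943 lower. Of 14 genes of the type I interferon response, 10 passed and 1 was higher (Isg15), near the background of 6.08%. That list summed to 1497, 1139, 1281 and 1439 SPM against 880.4, 822, 874 and 901 SPM, without overlap (0.62 ± 0.13). Of 7 gamma delta T cell genes, 2 passed, 0 were higher, 1 (Blk) was lower and 3 had no signal.

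**Figure D4:**
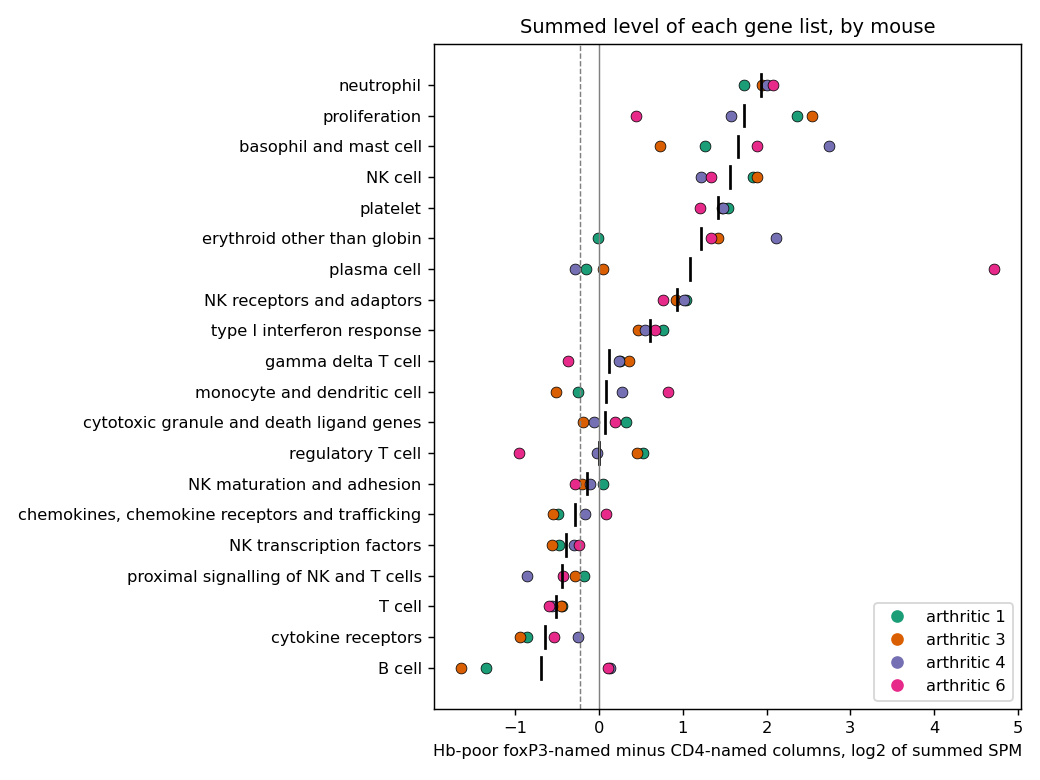
Difference of the summed level of each gene list between hemoglobin-poor foxP3-named and CD4-named columns, log2 of summed SPM, 1 point for each of arthritic mice 1, 3, 4 and 6, with a bar for the mean. The solid line is 0 and the dashed line the median of all genes (−0.22). The lists of NK cells, NK receptors, proliferation, neutrophils, platelets, basophils and mast cells and the interferon response lie to the right in all 4 mice. Those of T cells, NK transcription factors, cytokine receptors and proximal signalling lie to the left in all 4, and the plasma cell list at 4.71 in mouse 6 alone.

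The genes with the lowest difference were mostly of a low level. Ago3, of the small RNA pathway, was at 0, 8.66, 3.91 and 0 SPM against 68.2, 49.3, 40.7 and 54 SPM (−4.34 ± 1.88). Ppm1h, a phosphatase, was at 7.32, 13, 3.91 and 7.93 SPM against 101, 60.6, 77 and 89.4 SPM (−3.27 ± 0.80). Rpl12, a ribosomal protein gene, was at 14.6, 13, 11.7 and 27.8 SPM against 124, 93.8, 90.6 and 93.9 SPM (−2.58 ± 0.58). For 11 of the 15 named genes at least 1 mouse had no signal in the hemoglobin-poor columns.

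The hemoglobin-rich remainder of the class, 230 columns, also held Gzma and Klra4. Over the 5 mice with at least 5 such columns (healthy 3 and 4 and arthritic 4, 5 and 6) Gzma was at 301, 32.8, 190.5, 252 and 175 SPM, Klra4 at 104, 49.2, 36.3, 37.8 and 52.6 SPM and Ncr1 at 11.6, 0, 9.91, 0 and 0 SPM. Thus Gzma in healthy mouse 3 was as high as in the hemoglobin-poor columns of arthritic mice 1, 3, 4 and 6, and Ncr1 was low or at 0 throughout. Mice 4 and 6 alone held both kinds in number. Between them 1888 of 9587 genes (19.7%) were higher in the hemoglobin-poor columns in both mice and 1497 (15.6%) lower, so agreement of 2 mice is a weak criterion. Against that background 6 of 20 NK cell genes were higher and 1 lower, 1 of 12 proliferation genes was higher, and 12 of 20 erythroid genes were lower and 4 higher. Globin share and erythroid transcripts go together by the choice of columns, so the erythroid counts are a description of that choice. Signal differed too, with a median of 5332 per hemoglobin-rich column.

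Across the 101 columns, 5 genes outside the marker set followed the sum of the 5 markers most closely among 3685 genes compared, by Pearson correlation. They were Itgb1 (0.64, and 0.55 over the 77 distinct profiles), Klra1 (0.57 and 0.55), Nfkbia (0.54 and 0.41), S1pr1 (0.53 and 0.43) and Myh9 (0.52 and 0.34). Itgb1 had signal in 83 columns and Klra1 in 46. S1pr1, low against CD4-named columns as a mean, was thus higher in the columns with more marker signal. These values come from columns that share profiles and carry no test.

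The share of each mouse's columns that were hemoglobin-poor and foxP3-named was 0%, 0.498%, 0% and 0% in healthy mice 1 to 4, and 2.24%, 1.66%, 4.02%, 0.398% and 3.78% in arthritic mice 1, 3, 4, 5 and 6. All arthritic mice but mouse 5 lay above the highest healthy mouse. The means were 0.124% ± 0.249 (SD, n = 4) and 2.42% ± 1.51 (SD, n = 5), a difference of 2.30 points (two-sided exact permutation test, p = 0.0317, where the smallest possible p is 0.0159). Healthy mice 3 and 4 had 1 column each under 20% globin, so the globin limit alone nearly fixed their 0%. The test therefore cannot tell a difference in these columns from the effect of that limit, and no conclusion is drawn from its p-value. Healthy mice 1, 3 and 4 had only 30, 26 and 45 columns, which allow a share of up to 10%, 11.5% and 6.67% where none was found. Their limits exceed the share of every arthritic mouse, so a lower share was not detectable in any of these 3 mice taken alone. Over columns under 20% globin the share was 0%, 0.51%, 0% and 0% in healthy mice, and 2.25%, 1.67%, 11.2%, 2.41% and 4.01% in arthritic mice. Leaving out single mice moved p to between 0.0286 and 0.0714 (exact permutation test), above 0.05 without healthy mouse 1, 3 or 4 and without arthritic mouse 1, 3, 4 or 6. Because columns repeat between mice, the mice are less independent than the test takes them to be.

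**Figure D5:**
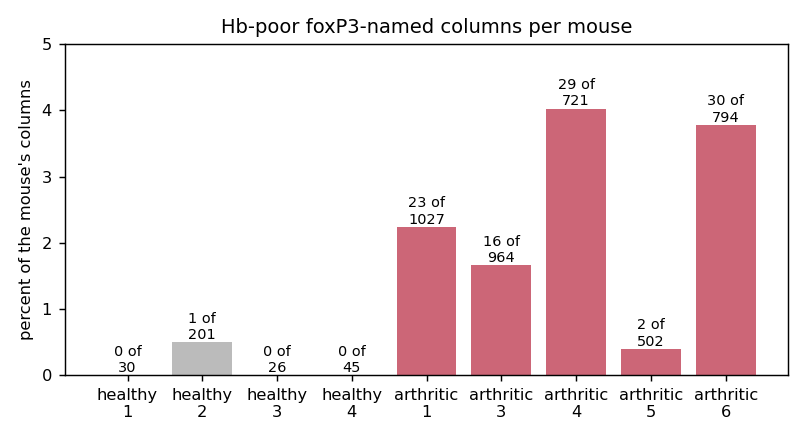
Hemoglobin-poor foxP3-named columns as a percent of all columns of each mouse, with the numbers above the bars. Healthy mice (grey) range from 0 to 0.498% and arthritic mice (red) from 0.398% to 4.02%, and 3 of the 4 healthy mice have under 50 columns.

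Levels within these columns could not be compared between healthy and arthritic mice, because healthy mouse 2 gave the only healthy column. That column had 20096 signal outside globin and a globin share of 0.0199%. It had no signal of any of the 5 markers, and it summed to 6718 SPM over the proliferation list, in the range of mice 1 and 3. Its 20 T cell genes summed to 5374 SPM.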

How the data were processed

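Blood of 9 mice was profiled by Seq-Well. Per the labels' protocols, read 1 (20 bases) held the barcode, read 2 (50 bases) the transcript, and reads followed the Drop-seq core protocol on GRCm38.p5. How reads were aligned, cells filtered and classes named is not stated there. Whole-number signal was deposited by the authors for each gene and barcode, in a table of 4310 columns. A joint table of 8423 columns was not used.

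Globin rows were removed, signal was summed per mouse and kind of column, scaled by TMM (trims of 30% and 5%) and taken as log2(SPM + 1). Sets under 5 columns were scaled by their total. Genes at 10 SPM or more in 4 of 8 libraries entered. A gene counted as higher or lower with the same sign in 4 mice and a mean of at least 1. The one test was an exact permutation of mouse shares. Planned limma fits between healthy and arthritic mice were not possible with 1 healthy column. Named genes were the 5 markers, up to 25 with the largest and 15 with the lowest difference at 50 SPM or more, and up to 6 of each list by level. Others were chosen after their values were seen. The members and the 20 lists were chosen with earlier results of these data known. The label protocol does not tell whether the mice were handled together. Repeated columns were kept, and alternatives count them once. Doublets were not called, since columns are not taken as single cells. Limits on a count of 0 use 3 columns and cover counting error only. The calling step was run on simulated independent counts, which lack the repeated columns of these data, so that check does not cover them. Python 3.11.15, numpy 2.4.6, pandas 2.3.3 and scipy 1.17.1 were used. Coordinates are from GENCODE M21. Results for 2 genes are not reported here.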

Additional observations from a re-analysis of the deposited data

Results flagged for a closer look

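In 47 groups of 4 or 5 mice examined, 6 held a mouse far from the others, and chance alone flags about 1 in 20 groups. The share of columns in healthy mouse 2 (0.498%) stood apart from the 0% of the other 3 healthy mice. Any value above 0 beside 3 zeros stands apart in this way, and those zeros allow shares of up to 10%, 11.5% and 6.67%. Klra4 was low in the hemoglobin-poor columns of arthritic mouse 6, at 79.3 SPM. The summed platelet list was high in arthritic mouse 4, at 191 SPM. The summed plasma cell list was high in arthritic mouse 6, at 10377 SPM, as was its difference from CD4-named columns (4.71), which comes with the single column rich in Igha and Jchain. The difference of the gamma delta T cell list was low in arthritic mouse 6 (−0.37). No cause was tested for any of these values.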

How the results depend on the processing

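Under 19 alternatives for the comparison with CD4-named columns, Gzma, Ccl5, Klra4 and Ncr1 kept a positive difference (2.62 to 3.16, 1.13 to 1.77, 2.58 to 3.23 and 2.12 to 4.01), as did the summed NK cell list (1.31 to 1.74) and the proliferation list (1.36 to 2.16). Nkg7 turned negative when identical columns of a mouse were counted once (−0.0545), when columns identical to one of another mouse were left out (−0.21), with the mean over columns (−0.0423), without arthritic mouse 1 (−0.0550), and, in an alternative added after the data were seen, with each profile counted once over all mice (−0.13). Leaving out single mice gave −0.0550 to 0.592. The T cell list stayed negative, at −0.67 with identical columns counted once, −0.62 without those identical to another mouse's, −0.34 scaled by the total alone and −0.39 with median-of-ratios factors. The erythroid list was 0.0686 with globin under 5%. With no filter on low genes 862 genes were higher and 1889 lower, while the differences of single genes and lists could not change. Leaving out single mice gave 635 to 903 higher and 988 to 1476 lower genes, the highest without mouse 6 (903 higher) and without mouse 4 (1476 lower). A minimum of 3 or 10 columns per mouse kept the same mice, so it could change nothing. The other 2 alternatives added after the data were seen, CD4-named columns under 20% globin only and no immunoglobulin A column, gave 563 and 546 higher genes. The cause of these shifts was not tested. Of the share of columns, leaving out single mice gave differences of 1.89 to 2.80 points. No paired analysis was possible because the 1 healthy column leaves no fit of healthy against arthritic mice, and mouse numbers name different animals, so a replicate block and all other alternatives foreseen for those fits were not run.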
